A study of Rattus norvegicus with 8 samples.

Results

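The interleukin-1 family and its inflammasome were followed through 10 genes chosen by name from the 32623 genes in the count files of rat arteriovenous fistula (AVF) outflow veins. They comprise the cytokines Il18, Il1a and Il1b, the soluble antagonists Il18bp and Il1rn, the receptor Il1r1, the inflammasome components Nlrp3, Pycard and Casp1, and the pore-forming Gsdmd. Of the 10, 9 reached the base mean of 100 needed for testing, as did 11682 of all genes, and Il1a (base mean 23.8) did not. The veins came from Sprague Dawley rats of both sexes whose epigastric vein had been joined end-to-side to the femoral artery and wrapped at surgery in a bilayer PLA and PLGA nanofiber scaffold. The scaffold was either loaded with β-aminopropionitrile (BAPN), an inhibitor of lysyl oxidase crosslinking enzymes, or carried no drug (Vehicle), and every vein was harvested at 21 days. BAPN 1 to 3 were female and BAPN 4 was male, while Vehicle 1 and 2 were female and Vehicle 3 and 4 were male. All 8 rats therefore shared the fistula and the polymer wrap, and no unoperated or unwrapped vein was compared. Animal ages were not given in the sources used here.

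Interleukin-1β and interleukin-18 are made as inactive precursors, and caspase-1 cleaves them into the secreted cytokines. Caspase-1 is activated on the inflammasome, which assembles when a sensor such as NLRP3 engages the adaptor ASC (Pycard), and it also cleaves gasdermin D, whose fragment forms pores in the cell membrane. Interleukin-1α is active without this step. IL-1RN competes with both interleukin-1 forms for the receptor IL-1R1, and IL-18BP captures interleukin-18. In vessel walls these cytokines come largely from macrophages, with contributions from endothelial and smooth muscle cells, and they drive adhesion molecule and chemokine expression. The measurements are of RNA, so cleavage and secretion were not observed.

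The promoters of 3 members are shown because Il18 and Casp1 were the members that rose and Il18bp is the antagonist of Il18. Each runs from 250 bases before the RefSeq transcription start to 50 bases after it, on the strand of the gene in build GRCr8. The build behind the counts is not given in the sources used here, so these positions belong to the RefSeq table alone. Capitals mark matches to 5 short patterns searched on both strands, which were TTCNNNGAA (a gamma-activated site), GAAA, any 2 bases and GAAA (an interferon-stimulated response element, ISRE), GGG, any 2 bases and TTTCC (NF-κB), TGANTCA (AP-1) and AGGAAGT (ETS). Il18 lies at chr8:59801822-59802121 on the plus strand, Casp1 at chr8:10872580-10872879 on the plus strand and Il18bp at chr1:165786906-165787205 on the minus strand.
Il18: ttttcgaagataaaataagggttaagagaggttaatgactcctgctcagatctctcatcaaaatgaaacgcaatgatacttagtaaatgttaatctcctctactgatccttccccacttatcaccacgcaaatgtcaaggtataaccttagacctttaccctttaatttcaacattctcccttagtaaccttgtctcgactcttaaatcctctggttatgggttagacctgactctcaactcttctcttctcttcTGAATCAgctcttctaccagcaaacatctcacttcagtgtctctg
Casp1: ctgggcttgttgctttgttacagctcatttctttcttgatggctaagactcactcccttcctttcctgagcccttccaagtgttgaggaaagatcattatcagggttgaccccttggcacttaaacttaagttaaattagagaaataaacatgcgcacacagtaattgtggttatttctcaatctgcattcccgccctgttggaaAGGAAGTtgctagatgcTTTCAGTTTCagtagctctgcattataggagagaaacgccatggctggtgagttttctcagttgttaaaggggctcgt
Il18bp: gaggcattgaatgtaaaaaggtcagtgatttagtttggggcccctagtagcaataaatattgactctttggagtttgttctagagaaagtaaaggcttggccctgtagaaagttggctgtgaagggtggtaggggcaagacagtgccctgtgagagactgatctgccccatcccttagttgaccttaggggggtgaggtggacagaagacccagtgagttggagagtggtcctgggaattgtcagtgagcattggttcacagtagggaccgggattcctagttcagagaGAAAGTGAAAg
Casp1 held an ISRE match on the reverse strand at position -28 from the start and an ETS match at -45, and the matches did not overlap. Il18bp held an ISRE match at position 40. The ISRE pattern was found in 3.92% of 33469 promoters of the same length, and in 2 of the 9 member promoters at hand. Il18 held a TGANTCA match at position 6, a pattern in 7.33% of promoters. With the middle base of the AP-1 pattern fixed as in TGACTCA, a narrower form added after the first matches had been seen, 4.63% of promoters matched, Il18 no longer did and Il1a still did. Elsewhere Nlrp3 held TTCNNNGAA (8.87% of promoters), Il1rn the NF-κB pattern (1.53%) and Pycard AGGAAGT (8.41%, also in Casp1). A match describes letters in the window and not binding.

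Across the 11682 tested genes, 16.8% passed an FDR of 0.05, with 7.5% higher and 9.25% lower in BAPN-treated AVFs. In the same fit, 4184 of the 11682 had an unadjusted edgeR p under 0.05. Total counts were 45039451 to 52241007 in BAPN libraries and 19548203 to 22442050 in Vehicle libraries, so depth separated the groups. Il18 and Casp1 were still called with every library thinned to the smallest total (log2 fold changes 1.34 and 0.67, edgeR FDR 0.0131 and 0.0175). Vehicle 4 stood apart in its markers, with summed macrophage markers of 5797 CPM below the 15706 to 23263 CPM of Vehicle 1 to 3, fibroblast markers of 94665 CPM against 28214 to 56914 CPM, and lung epithelial markers of 53.4 CPM against at most 0.609 CPM in any other library. Smooth muscle markers identified the vessel wall in every library (1435 to 5622 CPM), and all 6 had negative estimates with BAPN, of which 4 passed. The endothelial marker Pecam1 has no row in the tables.

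**Figure D1:**
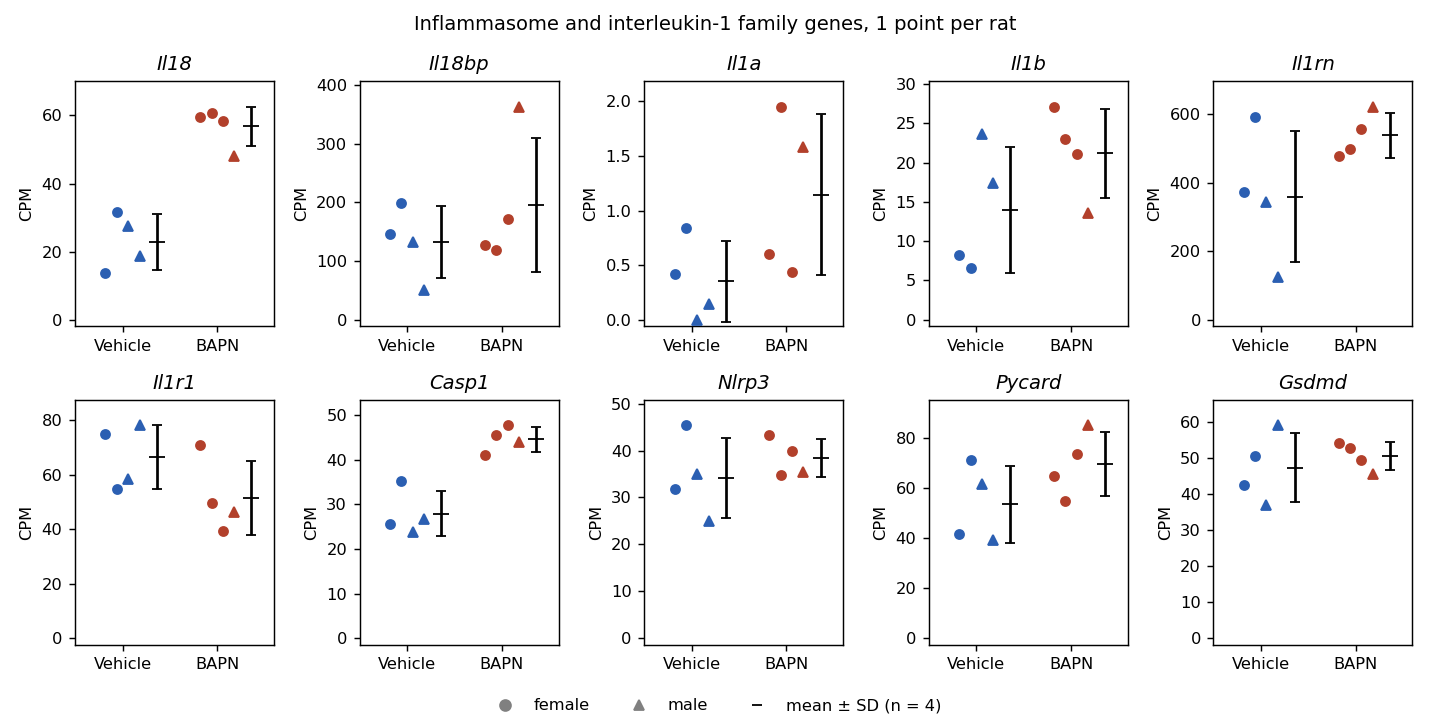
CPM (counts per 1000000 scaled reads, vertical axes) of the 10 inflammasome and interleukin-1 family genes in each of the 8 rats, with circles for females, triangles for males and mean ± SD beside each group (n = 4). Il18 and Casp1 are the genes of which all 4 BAPN points lie above all 4 Vehicle points, while Il18bp, Il1b and Il1rn spread widely.

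Il18 and Casp1 were higher in BAPN-treated AVFs, and the other 7 tested members did not pass. Of the 9 tested members, 2 passed at an FDR of 0.05 (22.2%, beside 16.8% of all tested genes), both higher (7.5% of all tested genes). The study had already named Il18 among the immune genes raised by BAPN in these libraries. The members were chosen with earlier results known. Of the 9, 8 had a positive log2 fold change (51.6% of all tested genes were positive), and the median was 0.56 against 0.02 over all tested genes. That median was 0.29 without Vehicle 4, 0.26 without BAPN 4, 0.22 without both and 0.16 among females alone. Il18 and Casp1 were also the only members whose groups did not overlap, which held for 24.7% of all tested genes (12.7% with BAPN higher).

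Il18, the interferon-γ-inducing cytokine of the family, rose 2.48-fold. In counts per 1000000 reads after TMM scaling (CPM), it measured 59.6, 60.8, 58.5 and 48.2 CPM in BAPN 1 to 4 and 13.6, 31.5, 27.5 and 18.8 CPM in Vehicle 1 to 4. The lowest BAPN library, BAPN 4, stood above the highest Vehicle library, Vehicle 2, and the Vehicle libraries varied more (coefficient of variation 35.6% against 10.2%). Means were 56.8 ± 5.81 CPM against 22.9 ± 8.14 CPM (SD, n = 4 each), with log2 fold change 1.31, SE 0.23, edgeR FDR 0.0137 and a 95% interval of 0.87 to 1.88. Here and for the other genes the fold change and FDR came from edgeR, and the SE and interval from limma-voom, whose estimate for Il18 was 1.38. An exact two-sided permutation test of the log2 CPM gave p = 0.0286, the smallest that 4 against 4 allows. Il18 ranked 285 of 11682 by p and 110 by log2 fold change. It passed in each of the 8 fits that left out 1 library (log2 fold change 1.13 to 1.50, largest edgeR FDR 0.0381) and with sex as a covariate (edgeR FDR 0.0358, where 7.96% of tested genes passed), but not among females alone, 3 against 2 (log2 fold change 1.40, edgeR FDR 0.0915). In RefSeq the span of Il18 overlaps those of Bco2 and Tex12. Bco2, a carotenoid-cleaving enzyme, was also higher (10.5 against 5.93 mean CPM, log2 fold change 0.83, edgeR FDR 0.0193), and its counts of 431 to 668 with BAPN and 119 to 138 with vehicle were below those of Il18 (2308 to 3083 and 291 to 654). Whether reads were shared between them was not tested.

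Il1b, the main inflammasome-processed interleukin-1, did not pass over all 8 rats. It measured 27.1, 23.0, 21.1 and 13.6 CPM in BAPN 1 to 4 and 8.24, 6.57, 23.7 and 17.4 CPM in Vehicle 1 to 4. The 2 female Vehicle libraries were the lowest and both male Vehicle libraries lay within the BAPN range. Means were 21.2 ± 5.67 CPM against 14.0 ± 8.04 CPM (SD, n = 4 each), with log2 fold change 0.60, SE 0.39, edgeR FDR 0.297 and a 95% interval of -0.15 to 1.59. The log2 fold change was 0.37 without Vehicle 2 and 0.98 without Vehicle 3, and neither passed (edgeR FDR 0.467 and 0.108). Among females alone Il1b averaged 23.8 CPM with BAPN and 7.41 CPM with vehicle (log2 fold change 1.68, edgeR FDR 0.0422), where 0.762% of tested genes passed. In males, the single BAPN library held 13.6 CPM and the Vehicle libraries averaged 20.6 CPM. The interaction of sex and treatment had an unadjusted edgeR p of 0.000415 and an FDR of 0.164. No tested gene passed for that interaction, although 1442 of 11682 had an unadjusted p under 0.05, and no other tool was run for it. With 1 male in the BAPN group, sex and that animal cannot be told apart.

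Il1a, the interleukin-1 that needs no caspase-1 cleavage, was barely detected. Reads assigned to it numbered 29, 99, 19 and 76 across BAPN 1 to 4, while Vehicle 1 to 4 yielded 9, 17, 0 and 3. The BAPN values equal 0.601, 1.95, 0.438 and 1.59 CPM and the Vehicle values 0.421, 0.840, 0 and 0.143 CPM, so the groups overlapped through Vehicle 2. Without the filter on low counts the log2 fold change was 1.73 and the edgeR FDR 0.287, and an exact two-sided permutation test gave p = 0.114.

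The soluble antagonists did not pass, and their spread between rats was wide. Il18bp, which neutralizes interleukin-18, measured 127, 118, 172 and 363 CPM in BAPN 1 to 4 and 146, 199, 132 and 50.5 CPM in Vehicle 1 to 4. BAPN 4 was the highest library and Vehicle 4 the lowest, and the other 6 overlapped. Means were 195 ± 115 CPM against 132 ± 61.6 CPM (SD, n = 4 each), with log2 fold change 0.56, SE 0.47, edgeR FDR 0.391. Without BAPN 4 the log2 fold change was 0.06 (edgeR FDR 0.925), and without both BAPN 4 and Vehicle 4, an alternative chosen after seeing the data, it was -0.21. Il18bp was the other member with an unadjusted interaction p under 0.05 (edgeR p 0.00649, FDR 0.262).

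Il1rn, the interleukin-1 receptor antagonist, measured 478, 497, 558 and 622 CPM in BAPN 1 to 4 and 374, 593, 344 and 125 CPM in Vehicle 1 to 4. Vehicle 4 was far the lowest library and Vehicle 2 lay within the BAPN range. Means were 539 ± 65.3 CPM against 359 ± 191 CPM (SD, n = 4 each), with log2 fold change 0.59, SE 0.45, edgeR FDR 0.285 and a 95% interval of -0.23 to 1.78. The log2 fold change was 0.30 without Vehicle 4 and 0.94 without Vehicle 2, and neither passed. Il36b, whose span overlaps that of Il1rn in RefSeq, had at most 1153 counts in a library, and Il1rn at least 2614.

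Il1r1, the signaling receptor for both interleukin-1 forms, was the tested member with a negative estimate, and it did not pass. It measured 70.9, 49.5, 39.4 and 46.4 CPM in BAPN 1 to 4 and 74.9, 54.8, 58.2 and 78.1 CPM in Vehicle 1 to 4. BAPN 1 overlapped the Vehicle range and the other BAPN libraries lay below it. Means were 51.6 ± 13.6 CPM against 66.5 ± 11.7 CPM (SD, n = 4 each), with log2 fold change -0.37, SE 0.19, edgeR FDR 0.205 and a 95% interval of -0.82 to 0.05. Without BAPN 1 the log2 fold change was -0.56 (edgeR FDR 0.0587).

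Casp1, the protease of the inflammasome, rose 1.60-fold. It measured 41.1, 45.5, 47.8 and 44.0 CPM in BAPN 1 to 4 and 25.6, 35.2, 23.9 and 26.8 CPM in Vehicle 1 to 4. All BAPN libraries lay above Vehicle 2, the highest Vehicle library, and they varied least among the members (coefficient of variation 6.27%). Means were 44.6 ± 2.80 CPM against 27.9 ± 5.05 CPM (SD, n = 4 each), with log2 fold change 0.68, SE 0.13, edgeR FDR 0.0170 and a 95% interval of 0.40 to 1.00, and the exact two-sided permutation p was 0.0286. It passed in 7 of 8 fits that left out 1 library and with sex as a covariate (edgeR FDR 0.0379). It did not pass without Vehicle 1 (log2 fold change 0.64, edgeR FDR 0.0560), without both BAPN 4 and Vehicle 4 (edgeR FDR 0.0652) or among females alone (log2 fold change 0.56, edgeR FDR 0.136). In RefSeq the span of Casp1 overlaps that of LOC134479989, that of Nlrp3 LOC134480694 and that of Il1a LOC120101660. Whether reads were shared with these was not tested.

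The sensor and the adaptor upstream of Casp1 did not pass. Nlrp3, the sensor, measured 43.4, 34.8, 39.9 and 35.4 CPM in BAPN 1 to 4 and 31.7, 45.4, 34.9 and 24.9 CPM in Vehicle 1 to 4. The BAPN libraries all fell inside the Vehicle range. Means were 38.3 ± 4.03 CPM against 34.2 ± 8.55 CPM (SD, n = 4 each), and the 95% interval of the log2 fold change was -0.19 to 0.57 (edgeR FDR 0.528). Pycard, the adaptor, measured 64.8, 54.9, 73.4 and 85.1 CPM in BAPN 1 to 4 and 41.7, 71.0, 61.7 and 39.2 CPM in Vehicle 1 to 4. BAPN 3 and 4 were above every Vehicle library and BAPN 1 and 2 were not. Means were 69.5 ± 12.8 CPM against 53.4 ± 15.5 CPM (SD, n = 4 each), with log2 fold change 0.38, SE 0.21, edgeR FDR 0.228 and a 95% interval of -0.07 to 0.89.

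Gsdmd, the caspase-1 substrate that opens membrane pores, differed least of the members. It measured 54.2, 52.9, 49.4 and 45.6 CPM in BAPN 1 to 4 and 42.6, 50.7, 37.0 and 59.1 CPM in Vehicle 1 to 4. The BAPN libraries again lay inside the Vehicle range. Means were 50.5 ± 3.84 CPM against 47.3 ± 9.64 CPM (SD, n = 4 each), and the 95% interval of the log2 fold change was -0.21 to 0.45 (edgeR FDR 0.674).

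**Figure D2:**
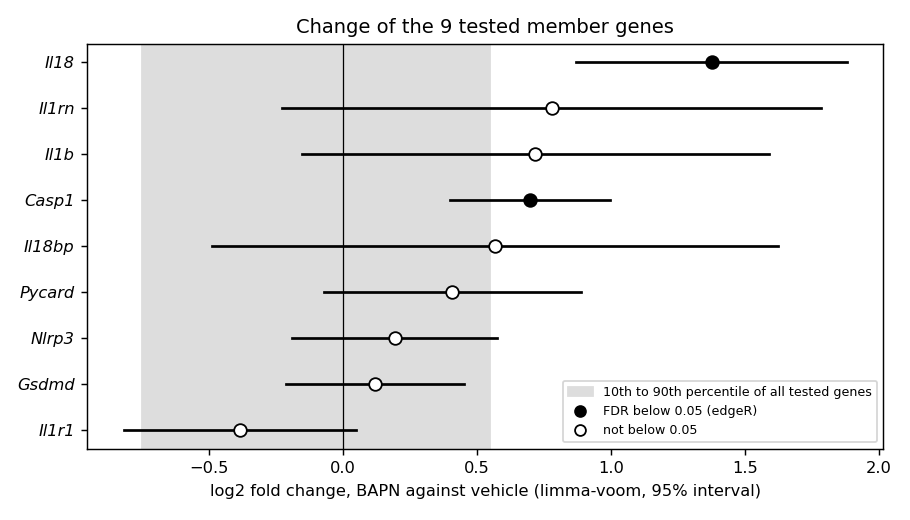
Log2 fold change of the 9 tested members, BAPN against vehicle, from limma-voom with 95% intervals (horizontal axis), over the 10th to 90th percentile of all tested genes by edgeR (grey, -0.75 to 0.55). Filled points passed an edgeR FDR of 0.05, and these are Il18 and Casp1.

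**Figure D3:**
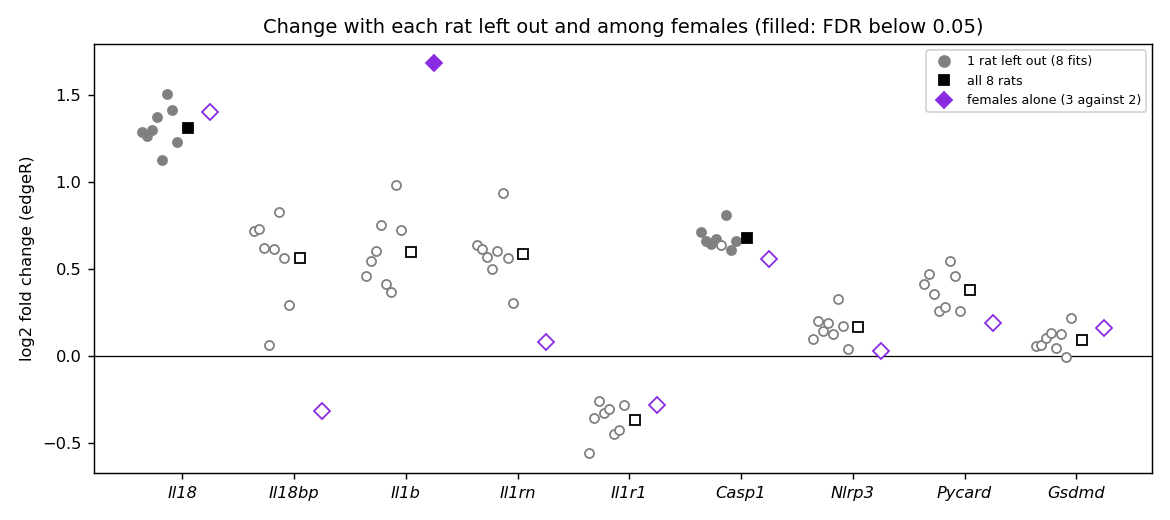
Log2 fold change by edgeR (vertical axis) of each tested member with 1 rat left out in turn (grey circles), with all 8 rats (black squares) and among females alone (violet diamonds), filled where the FDR is below 0.05. Il18 is filled in all 8 leave-out fits and Casp1 in 7, and Il1b is filled among females alone.

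Balances between a ligand and its antagonist, or a receptor and its decoy, were compared within each library as log2 ratios of counts, which do not depend on library scaling. By an exact two-sided permutation test none of the 4 ratios passed, and a single ratio adjusted over 4 could not fall below 0.114 in this design. Il18 to Il18bp averaged -1.63 ± 0.89 with BAPN and -2.44 ± 0.83 with vehicle (SD, n = 4 each), a difference of 0.81 (exact p = 0.257, Benjamini-Hochberg adjusted over 4 ratios 0.343). It was 0.49 without Vehicle 1 and 1.24 without BAPN 4, and neither passed (exact p = 0.429 and 0.0857). BAPN 4 had the lowest ratio of its group (-2.91) and Vehicle 4 the highest of the controls (-1.42). Il1b to Il1rn averaged -4.70 ± 0.59 with BAPN and -4.67 ± 1.63 with vehicle (SD, n = 4 each), a difference of -0.03 (exact p = 0.971). Its direction was not stable, from -0.64 without Vehicle 2 to 0.58 without Vehicle 4, and it was 1.56 among females alone. Il1a to Il1rn differed by 1.55 (exact p = 0.257, adjusted 0.343), and by 0.44 without Vehicle 3, where no Il1a read was counted (exact p = 0.514). Il1r1 to Il1r2, the receptor against the decoy that binds interleukin-1 without signaling, averaged 3.04 ± 0.28 with BAPN and 3.91 ± 0.58 with vehicle (SD, n = 4 each). That difference of -0.87 had an exact p of 0.0571 and an adjusted p of 0.229, and without Vehicle 3 it was -1.10 (exact p = 0.0286).

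**Figure D4:**
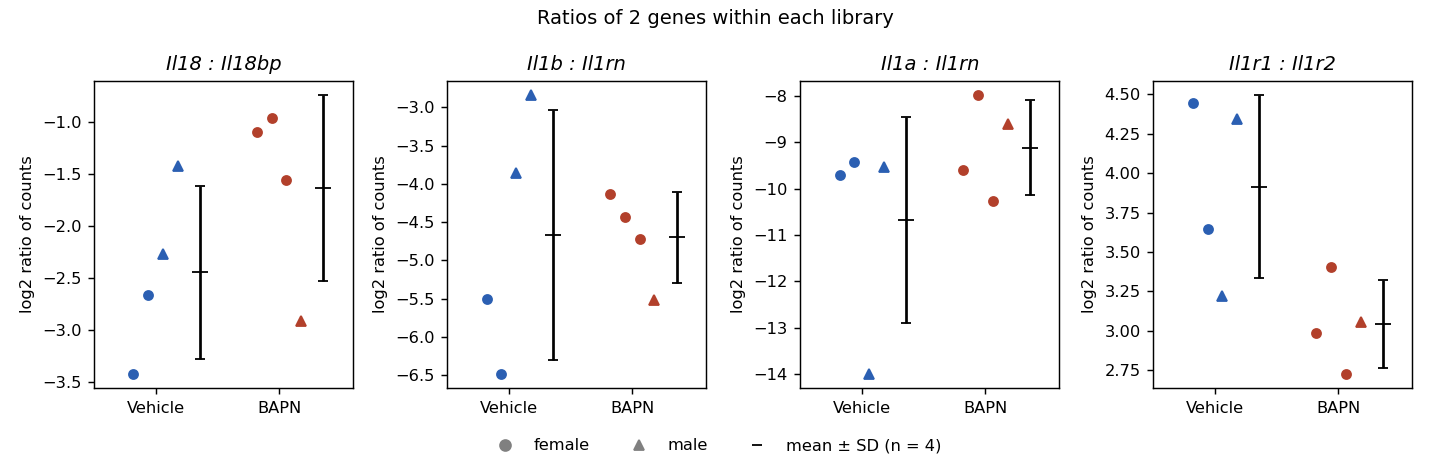
Log2 ratio of the counts of 2 genes in each library (vertical axes, which do not start at 0), with circles for females, triangles for males and mean ± SD (n = 4). The groups overlap in all 4 panels, and the single low point of Il1a to Il1rn is Vehicle 3, where the Il1a count was 0.

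The other genes of the pathway were counted from lists of 79 genes, of which 76 had a row and 54 were tested. Of the 54, 5 passed (9.26%, beside 16.8% of all tested genes), all higher with BAPN, and 43 had a positive log2 fold change, with a median of 0.28. The 5 were Aim2, Casp8, Icam1, Irf1 and Ifngr2. DESeq2 passed 12 of the 54 (27.4% of all tested genes). None of the 5 passed without BAPN 2, BAPN 3, Vehicle 1 or Vehicle 4, and without Vehicle 4 the 1 listed gene that passed was Gbp5. With 1 library left out, Aim2 and Casp8 passed in 3 of 8 fits, Irf1 in 2, and Icam1 and Ifngr2 in 1. Nor did any of the 5 pass with sex as a covariate. There 14 of the 54 had an unadjusted edgeR p under 0.05, beside 3550 of all 11682 tested genes.

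Among other inflammasome sensors, 1 of 5 tested genes passed (20%, beside 16.8% of all tested genes). Aim2, which senses cytosolic DNA and recruits ASC, measured 19.3, 38.9, 24.6 and 27.8 CPM in BAPN 1 to 4 and 10.5, 13.5, 17.4 and 5.49 CPM in Vehicle 1 to 4. Every BAPN library lay above every Vehicle library (log2 fold change 1.23, SE 0.36, edgeR FDR 0.0376). Nlrp1a averaged 44.8 ± 5.75 CPM against 40.1 ± 10.03 CPM (SD, n = 4 each) and did not pass.

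Among 10 activators and regulators of inflammasomes, 1 passed in edgeR (10%, beside 16.8% of all tested genes) and 3 in DESeq2 (27.4% of all tested genes). Casp8, a caspase that can cleave interleukin-1β and gasdermin D besides its role in apoptosis, measured 23.8, 23.8, 23.3 and 20.5 CPM in BAPN 1 to 4 and 16.3, 14.3, 17.4 and 17.0 CPM in Vehicle 1 to 4. The groups did not overlap (log2 fold change 0.49, SE 0.13, edgeR FDR 0.0277). Nek7, the kinase that binds NLRP3 for its activation, averaged 43.0 ± 9.58 CPM against 62.5 ± 7.49 CPM (SD, n = 4 each) without overlap (log2 fold change -0.54). It did not pass in edgeR (FDR 0.0554) and did in DESeq2 (adjusted p 0.0216), as the 1 lower gene among the 12 that DESeq2 passed. The other DESeq2 call was Casp4, an inflammatory caspase that senses bacterial lipopolysaccharide, named after its value was seen, at 27.6 ± 4.29 CPM against 17.9 ± 5.21 CPM (SD, n = 4 each) without overlap (log2 fold change 0.62, edgeR FDR 0.0814, DESeq2 adjusted p 0.0492). Txnip averaged 882 ± 85.0 CPM against 876 ± 54.1 CPM (SD, n = 4 each).

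Of the pyroptosis genes counted here other than Gsdmd, 1 was tested and it did not pass in edgeR or DESeq2. Ninj1, which ruptures the membrane of dying cells, averaged 144 ± 25.2 CPM against 140.1 ± 15.6 CPM (SD, n = 4 each) (edgeR FDR 0.862). Gsdme, another gasdermin, averaged 2.01 ± 0.898 CPM against 2.54 ± 1.08 CPM (SD, n = 4 each) and was below the base mean needed for testing.

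The other ligands and the receptors did not pass. Of the other ligands, Il33 averaged 222 ± 15.4 CPM against 253 ± 62.8 CPM (SD, n = 4 each) (edgeR FDR 0.467) and Il36b 14.9 ± 6.69 CPM against 6.34 ± 3.93 CPM (SD, n = 4 each) (edgeR FDR 0.141), while Il36a, Il36g and Il36rn were at 0 in all 8 libraries. Neither of these ligands had an unadjusted p under 0.05 in edgeR, and DESeq2 passed none. Of the 7 tested receptors other than Il1r1, edgeR passed 0, with an unadjusted p under 0.05 in 2, and DESeq2 passed 1. That was Il18rap, the accessory chain of the interleukin-18 receptor, named after its value was seen, at 13.6 ± 5.55 CPM against 6.28 ± 2.01 CPM (SD, n = 4 each) (log2 fold change 1.12, edgeR FDR 0.0600, DESeq2 adjusted p 0.0158). Il1rl1, the receptor of interleukin-33, averaged 45.6 ± 14.4 CPM against 37.5 ± 10.7 CPM (SD, n = 4 each), and Il1rap, the chain shared by several receptors of the family, 26.1 ± 3.74 CPM against 23.0 ± 2.81 CPM (SD, n = 4 each).

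Of the 10 tested adaptors and kinases that relay receptor signals, edgeR passed 0, with an unadjusted p under 0.05 in 2, and DESeq2 passed 2. Those 2 were Myd88 (102 ± 11.5 CPM against 80.6 ± 6.48 CPM (SD, n = 4 each), edgeR FDR 0.0666) and Irak4 (32.0 ± 2.01 CPM against 26.0 ± 1.96 CPM (SD, n = 4 each), edgeR FDR 0.0786), both named after their values were seen. Tab2 averaged 117 ± 7.90 CPM against 108 ± 7.002 CPM (SD, n = 4 each) and Irak1 110.0 ± 5.96 CPM against 111 ± 5.59 CPM (SD, n = 4 each).

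Downstream, 1 of 12 tested genes induced by interleukin-1 passed (8.33%, beside 16.8% of all tested genes). Estimates were positive for 8 (66.7%, beside 51.6% of all tested genes) and negative for 4. DESeq2 passed 2 (27.4% of all tested genes), Icam1 and Zc3h12a. Zc3h12a was named after its value was seen (log2 fold change 0.49, edgeR FDR 0.0658, DESeq2 adjusted p 0.0386). Icam1, a leukocyte adhesion molecule, measured 147, 142, 141 and 139 CPM in BAPN 1 to 4 and 116, 121, 99.5 and 90.5 CPM in Vehicle 1 to 4. The groups did not overlap (log2 fold change 0.41, SE 0.12, edgeR FDR 0.0417). Mmp9, a matrix-degrading protease, averaged 357 ± 226 CPM against 173 ± 134 CPM (SD, n = 4 each) and did not pass.

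In the interferon-γ axis, which interleukin-18 stimulates and which induces Il18bp, 2 of 7 tested genes passed, both higher (7.5% of all tested genes), and all 7 estimates were positive with a median of 0.57 (51.6% and 0.02 over all tested genes). Both calls were lost with sex as a covariate (edgeR FDR 0.0680 for Irf1 and 0.0838 for Ifngr2) and with the replicate block (edgeR FDR 0.0846 and 0.112). Irf1, a transcription factor induced by interferon-γ, measured 102, 96.5, 87.6 and 78.5 CPM in BAPN 1 to 4 and 46.8, 70.6, 63.9 and 64.5 CPM in Vehicle 1 to 4. The groups did not overlap (log2 fold change 0.57, SE 0.15, edgeR FDR 0.0300). Ifngr2, a chain of the interferon-γ receptor, measured 127, 117, 167 and 160.0 CPM in BAPN 1 to 4 and 88.3, 116, 96.9 and 66.1 CPM in Vehicle 1 to 4. BAPN 2 stood just above Vehicle 2, the highest Vehicle library (log2 fold change 0.64, SE 0.19, edgeR FDR 0.0457). Ifngr1 averaged 256 ± 28.9 CPM against 201 ± 8.29 CPM (SD, n = 4 each) and Irf8, a transcription factor of myeloid cells, 169.8 ± 27.7 CPM against 117 ± 38.4 CPM (SD, n = 4 each). Neither passed in edgeR (FDR 0.0661 and 0.126), and DESeq2 passed Ifngr1 (adjusted p 0.0143). Ifng itself had a base mean of 5.79 and was not tested.

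**Figure D5:**
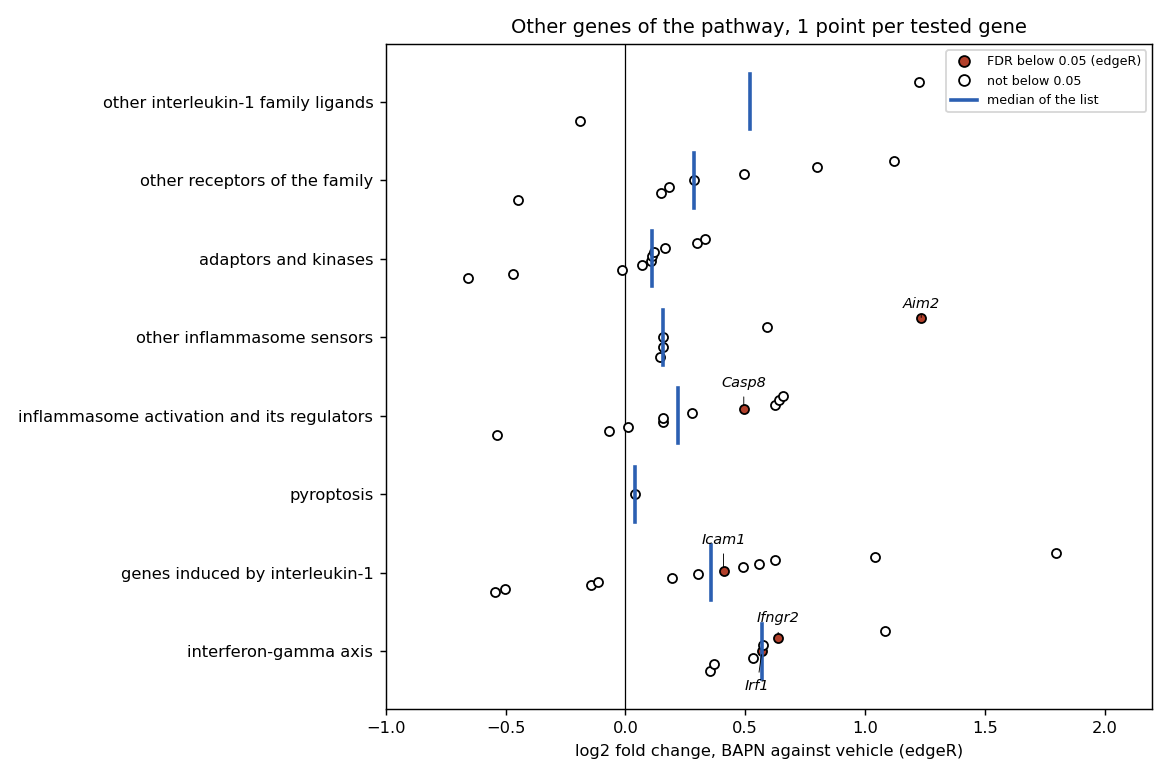
Log2 fold change by edgeR, BAPN against vehicle (horizontal axis), of the 54 other tested pathway genes in 8 lists, with the median of each list as a blue bar. The 5 filled points passed an FDR of 0.05 and all lie above 0.

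Markers of several cell types differed between the groups beside Il18 and Casp1. In bulk tissue, fewer cells of a type and less RNA per cell cannot be told apart. Summed macrophage markers ranged from 28129 to 42133 CPM with BAPN and from 5797 to 23263 CPM with vehicle, mostly Lyz2. Of 10 tested macrophage markers 1 passed in edgeR (10%, beside 16.8% of all tested genes), which was Aif1 (log2 fold change 0.80, FDR 0.0155), and DESeq2 passed 4 (27.4% of all tested genes), while Marco was at 0 in every library. Of the 10, 9 had a positive log2 fold change (51.6% of all tested genes), with a median of 0.61 (0.02 over all tested genes). The groups did not overlap for 3 of the 10 (24.7% of all tested genes). An unadjusted edgeR p under 0.05 was found for 4 of the 10, and for 4184 of all 11682 tested genes. T cell markers summed to 346.5 to 443 CPM with BAPN and 289 to 496 CPM with vehicle, and most of the sum was Cd4 (334 and 350.4 mean CPM). Of 7 tested T cell markers 2 passed (28.6%, beside 16.8% of all tested genes), both higher (7.5% of all tested genes). They were Cd2 (18.2 against 6.96 mean CPM, edgeR FDR 0.0138) and Cd8a (21.1 against 8.42 mean CPM, edgeR FDR 0.0281). B and plasma cell markers summed to 155, 195, 219 and 6.66 CPM across BAPN 1 to 4 and 12.04 to 37.0 CPM with vehicle. BAPN 4 lay below the Vehicle range. Of the 3 tested markers 2 passed (66.7%, beside 16.8% of all tested genes), both higher (Cd79b and Mzb1). Neutrophil markers summed to 28.7 to 66.8 CPM and 19.7 to 54.3 CPM, with 0 of 2 passing, neither with an unadjusted p under 0.05 in edgeR and none by DESeq2. Dendritic cell markers summed to 24.5 to 53.6 CPM and 34.2 to 47.3 CPM. Of the 5, 1 passed (20%), and it was lower (Zbtb46, beside 9.25% of all tested genes lower). All 5 tested endothelial markers had negative estimates and 1 passed (Vwf, 20% of the 5, beside 9.25% of all tested genes lower). All 6 fibroblast markers had negative estimates, of which edgeR passed 0 and DESeq2 4, and 4 had an unadjusted edgeR p under 0.05. Of 4 tested adipocyte markers 3 had negative estimates, 1 of which passed in edgeR (Plin1, log2 fold change -2.13, FDR 0.0443) and all 3 in DESeq2. Skeletal muscle markers summed to 2.28 to 6.07 CPM with BAPN and 1.87 to 52.3 CPM with vehicle, highest in Vehicle 2. Per Csf1r count, the log2 ratio of Il18 was higher by 1.19 with BAPN and the groups did not overlap (-4.09 to -3.46 against -5.72 to -4.61). Per Cd68 count the difference was 0.76 with overlap, between 0.41 without Vehicle 1 and 1.01 without Vehicle 4. Per Lyz2 count it was -0.11, and with 1 library left out it ranged from -0.40 (without Vehicle 1) to 0.33 (without Vehicle 4), with 0.03 without BAPN 4 and negative values in the other fits. For Casp1 the differences per Csf1r, Cd68 and Lyz2 count were 0.50, 0.07 and -0.80, all with overlap. Without Vehicle 4 they were 0.62, 0.38 and -0.30, and the Cd68 value fell as low as -0.09 without Vehicle 1. Keratinocyte markers summed to 26.4, 35.03, 4.94 and 6.83 CPM across BAPN 1 to 4 and to 8.20 to 16.3 CPM with vehicle. Of the 2 tested keratinocyte markers, Dsg3 passed (19.2, 13.7, 0.300 and 0.0835 CPM across BAPN 1 to 4 and at most 0.0988 CPM with vehicle), and Dsp did not (3.97 against 6.54 mean CPM, edgeR FDR 0.218). The part of these cell types in the rise of Il18 and Casp1 was not tested.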

How the data were processed

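Total RNA from 8 outflow veins was sequenced after ribosomal RNA depletion with a stranded kit. The deposited files hold whole-number counts of reads per gene, without normalization, for 32623 Ensembl genes. The submitters' processing notes name bcl2fastq 2.17, Trim Galore and STAR. The counter, its strand setting and the genome build are not given in the sources used here, so reads of overlapping genes may be shared. 177 names stand for more than 1 row.

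A base mean of 100 or more, the filter in the study's methods, was required for testing in edgeR 4.0.16 under R 4.3.3 (TMM scaling, quasi-likelihood F test, no covariate), and FDR values were Benjamini-Hochberg adjusted across the 11682 genes. Standard errors and 95% intervals came from limma 3.58.1 (voom). DESeq2 1.42.0, the nearest tool to that of the study, was an alternative. The others were RLE, upper-quartile and total-count scaling, 2 other filters, sex as a covariate, females alone, a replicate block, thinned libraries and each library left out. The sex interaction, the fit without BAPN 4 and Vehicle 4, and the leave-out values of ratios to macrophage genes and of the members' median were added after seeing the data. CPM used TMM-scaled library sizes and a prior count of 2 on the log2 scale. Ratios used a pseudocount of 0.5, and exact two-sided permutation tests enumerated the 70 ways to split 8 rats into 4 and 4. CPM is not scaled by gene length, so gene length also enters where counts or CPM of different genes are set side by side. The steps were tested on simulated counts.

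Groups, replicate numbers and sex came from the labels. No pair of libraries in a group agreed within counting noise. The members and lists were chosen with earlier results of these data known. All members are named, with each listed pathway gene that passed, otherwise the 2 of a list with the highest mean CPM, and the 5 genes most like Il18 and Il1b. Some listed pathway genes are not reported here and were left out of the list counts. Promoters came from RefSeq (GRCr8), which matched 9 of the 10 members and did not include Gsdmd. The AP-1 pattern TGACTCA was added after matches to TGANTCA had been seen, and both are given. The p-values set the difference between groups against the spread between these rats, and the groups also differed in depth and in sex.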

Additional observations from a re-analysis of the deposited data

Results flagged for a closer look

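In 38 groups of 4 libraries, a library was taken to stand apart when its gap to the nearest of the others exceeded Dixon's critical value of 0.829 times the whole range, which chance gives in about 1 of 20 groups. It happened in 2. Casp8 in BAPN 4 was 20.5 CPM, below the 23.3 to 23.8 CPM of the other BAPN libraries and above all Vehicle libraries. The log2 ratio of Il1a to Il1rn in Vehicle 3 was -14.0, against -9.72 to -9.42 in the other Vehicle libraries, and rests on an Il1a count of 0. No member passed for the interaction of sex and treatment in edgeR, with an unadjusted p under 0.05 in 2 of 9 tested members (Il1b and Il18bp).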

How the results depend on the processing

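The count of members passing was 2 (Il18 and Casp1) in the other alternatives, and 1 among females alone (Il1b) and 1 without BAPN 4 and Vehicle 4 together (Il18). It ranged from 1 to 2 when a library was left out, with 1 (Il18) without Vehicle 1. The count of other pathway genes passing was 12 with DESeq2 and 1 with total counts only (Nek7, lower). That count was 0 with sex as a covariate, among females alone, with the replicate block and without BAPN 4 and Vehicle 4 together. In those fits, in that order, 14, 18, 18 and 17 of the 54 had an unadjusted edgeR p under 0.05. Over all 11682 tested genes, the same fits gave 3550, 2863, 3583 and 3191 with an unadjusted edgeR p under 0.05. The count of other pathway genes passing ranged from 0 to 5 when a library was left out. It was 0 without BAPN 2, BAPN 3 or Vehicle 1, and 1 without BAPN 1 (Aim2) or Vehicle 4 (Gbp5). The count over all tested genes, 1957, became 3202 with DESeq2, 930 with sex as a covariate, 89 among females alone, 438 without BAPN 4 and Vehicle 4, and 397 (without Vehicle 1) to 2215 when a library was left out. Total-count scaling gave 504 higher and 1161 lower, against 876 and 1081.

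With the replicate block, all tested genes gave 556 calls, and Il18 and Casp1 passed at edgeR FDR 0.0424 and 0.0498. The numbers were not taken to pair the rats, since correlations of same-numbered libraries were 0.09, -0.26, 0.27 and -0.14, and only number 3 correlated best with its own.

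Il18bp turned to -0.32 among females alone and -0.21 without BAPN 4 and Vehicle 4, and Gsdmd to -0.0071 without Vehicle 3 (up to 0.22 when other libraries were left out). The log2 ratio of Il1b to Il1rn turned to 1.56 among females alone and ranged from -0.64 to 0.58 when a library was left out. That of Il1r1 to Il1r2 ranged from -1.10 (without Vehicle 3, exact permutation p 0.0286) to -0.70. The causes were not tested. Il1a, at 0 to 99 counts, was too low for the base mean filter.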

Other observations

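Over the 8 libraries, 11018 tested genes with a symbol were compared with Il18 and Il1b by the root mean square difference of their gene-centred log2 CPM, as a description over libraries that also differ in depth. The closest to Il18 were Cd8a, the T cell co-receptor (0.20), Prr15 (0.22), Timm9, a mitochondrial import chaperone (0.22), Ms4a6a (0.25) and Clec4a2, a myeloid C-type lectin (0.25). The closest to Il1b were Txk, a T cell kinase (0.29), Klrc2, a natural killer cell receptor (0.33), Nfkbiz (0.35), Flt3 (0.35) and Rhoh (0.37).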
